A study of Mus musculus with 18 samples.

Results

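Semaphorins are secreted or membrane-bound ligands, plexins are their signalling receptors, and neuropilins are co-receptors that share ligands with plexins. From all 3 families 10 genes expressed in bone marrow-derived dendritic cells (DCs), a subset of those expressed, were taken by name from the table of normalized counts: the ligands Sema4a, Sema4b, Sema4d and Sema7a, the receptors Plxna1, Plxnb2, Plxnc1 and Plxnd1, and the co-receptors Nrp1 and Nrp2. All 10 were found among the 62197 genes of that table, and all 10 are among the 17875 genes that were tested. The study compared DCs left nonconfined, DCs under 3 µm of confinement, and DCs given LPS, each from mice labelled cPLA2 WT or cPLA2 KO, by bulk RNA-seq of 3 libraries per group and 18 in all. The DCs were grown from marrow for 10 days with supernatant of J558 cells making GM-CSF, confined cells were collected 4 h after confinement, and LPS-treated cells received 100 ng/ml for 30 min by the sample labels (25 min by the Methods), were washed and were collected the next day. The knockout is described as a conditional Pla2g4a allele with an Itgax-driven Cre on C57BL/6, so that deletion depends on CD11c expression and need not reach each cell of the culture.

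Plexins carry a GTPase-activating domain inside the cell that acts on small GTPases of the Rap and Ras families, and binding of a semaphorin relieves its inhibition. In the immune system these proteins guide the migration of DCs, T cells and monocytes, alter adhesion through integrins, and act at the contact between DCs and T cells. Most class 4 semaphorins and Sema7a sit on the cell surface, so a DC can carry ligand, receptor and co-receptor together.

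Values are normalized counts, that is, reads assigned to a gene divided by a size factor for the library, and changes are log2 fold changes from limma fitted over all 18 libraries. A change passed where its p-value, adjusted over the 17875 tested genes, was under 0.05, and it is called 2-fold where log2 was also beyond 1 in size. The targeted gene Pla2g4a read 697, 686 and 770 in nonconfined libraries labelled WT, against 548, 542 and 533 in those labelled KO. Confined libraries gave 1369, 1430 and 1321 with label WT and 923, 871 and 920 with label KO. LPS libraries gave 1005, 969 and 967 with label WT and 1065, 1032 and 1028 with label KO, so there the labelled KO libraries read higher. Genotype is therefore given as labelled throughout, and LPS is compared with nonconfined cells over both labels, 6 libraries against 6.

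Genes outside the family were looked at for the same reason after their values had been seen. Ddx3y, on the Y chromosome, was at 0 to 3.05 in the 6 nonconfined and confined libraries labelled WT and at 874 to 1036 in the 6 labelled KO. Across the LPS libraries it read 1271, 0 and 662 with label WT and 2.12, 1476 and 783 with label KO, so both labels hold libraries with and without it. Xist averaged 30772 ± 2865 in nonconfined libraries labelled WT and 15188 ± 3543 in those labelled KO (mean ± SD, as below), and 28659 ± 5458 and 20805 ± 3932 in confined ones, where the labels overlap. Acot1, on an autosome, averaged 1.60 and 418 in nonconfined libraries labelled WT and KO, and 5.55 and 601 in confined ones. These labels thus also differ in a gene outside the sex chromosomes. In LPS libraries Acot1 averaged 29.8 and 30.0, reading 54.9, 0.915 and 33.6 with label WT and 0, 49.2 and 40.7 with label KO. It was near 0 in the same LPS libraries as Ddx3y. Among members, Nrp1 read 1759 and 1689 in those libraries and 2458 and 2346 where Ddx3y was highest, and Sema7a went the opposite way. Sema4a showed no such split, at 40730 and 40664 against 40065 and 41029. Ddx3y and Acot1 thus match LPS replicates 1, 2 and 3 of label WT with replicates 2, 1 and 3 of label KO. In these pairs Sema7a read 3626 and 3634, 4658 and 4547, and 4324 and 4063. Plxna1 read 6138 and 4730, 5657 and 5374, and 5837 and 4967. Whether matched libraries share a culture was not tested. The p-values for LPS count all 6 libraries as separate units, which would overstate the replication if they do. What divides the LPS libraries was not tested either. Nonconfined and confined libraries labelled KO held Xist as well as Ddx3y, so donors of both sexes may be mixed in them. Xist ran from 16450 to 30960 in LPS libraries. The sex makeup of the donors and the genotype label cannot be told apart between nonconfined or confined libraries labelled KO and WT. This holds for every member, Sema7a and Plxnd1 included.

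Levels were compared between members as normalized counts per kilobase of merged exon, that is, of all annotated exons of a gene together. Plxnd1 was highest in every group, from 3608 ± 184 in confined libraries labelled KO to 9336 ± 121 in LPS libraries labelled WT (4074 ± 205 in nonconfined libraries labelled WT), and Sema4a came next in every group (2752 ± 77.4 in nonconfined libraries labelled WT). In the same nonconfined libraries Plxnc1 followed at 833, Plxnb2 at 510, Sema4d at 496, Plxna1 at 414, Sema7a at 292, Sema4b at 223, Nrp2 at 123 and Nrp1 at 102. By merged exon length Sema7a moved up to position 3 in confined libraries labelled WT (682) and in LPS libraries (1266 with label WT, 1229 with label KO). In LPS libraries Nrp2 took position 4 (910 and 807). By merged exon length Nrp1 was lowest in all 6 groups. The order depends on the length used, since canonical transcripts are much shorter for some genes. Sema4a has 3231 bases against 9137 merged, Nrp1 5135 against 15240 and Plxnd1 7227 against 7936. By canonical length Sema4a would exceed Plxnd1 in every group, Sema7a would not reach position 3, and Nrp1 would not be lowest. The order compares RNA between genes and not the amounts of protein at the surface.

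**Figure D1:**
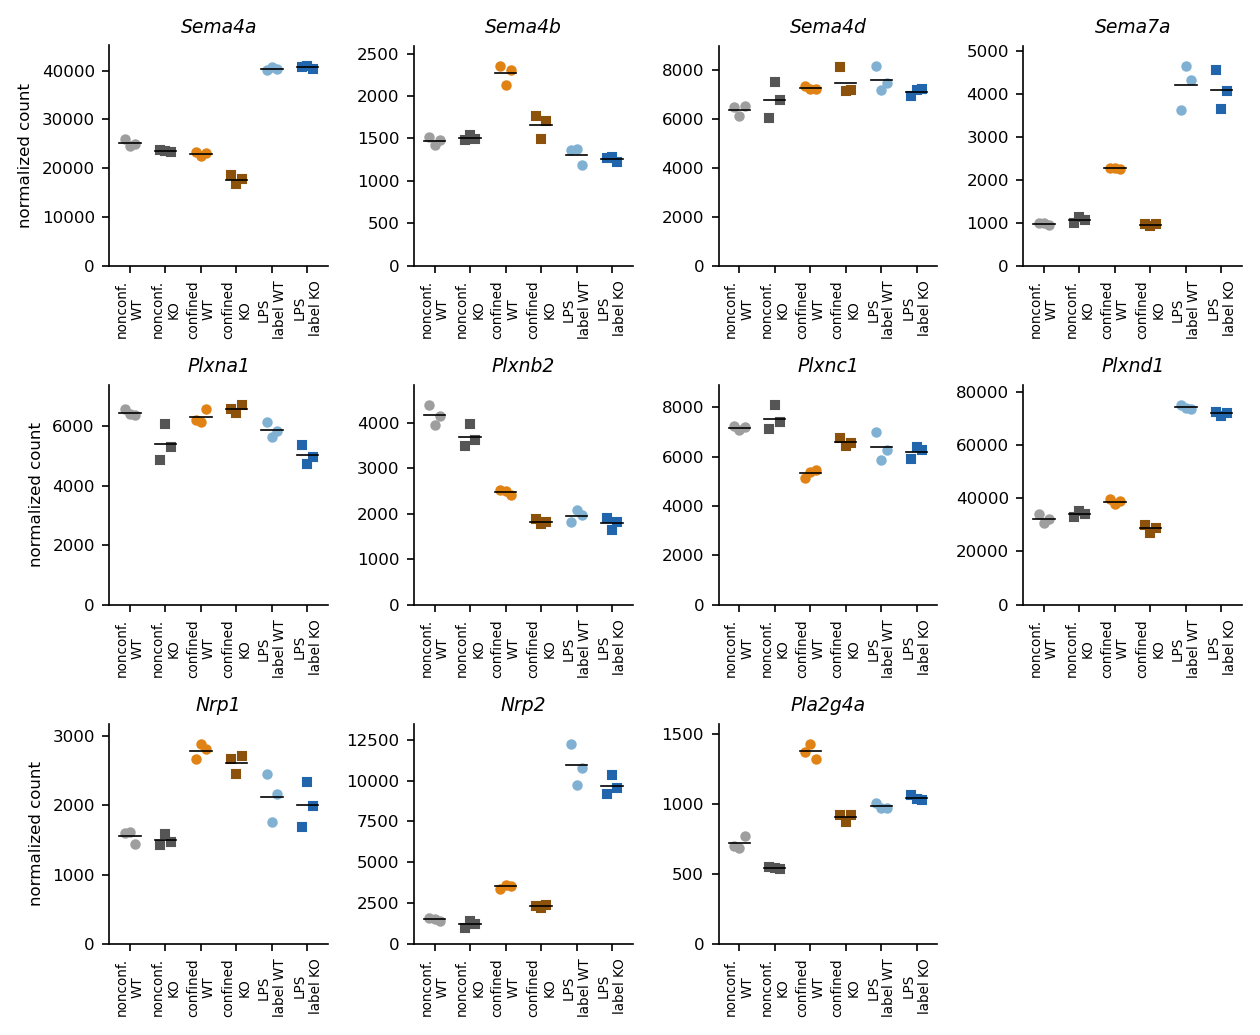
Normalized counts of the 10 genes and of Pla2g4a in each of the 18 libraries, on linear axes that start at 0, with the line at the mean of 3 libraries. Genotype is as labelled.

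With confinement in cells labelled WT, 9 of 10 members passed, 6 higher and 3 lower, beside 56.6% of all tested genes and 72.4% of the 11894 genes that pass a filter of 100 normalized counts; the members are all above that filter. In this comparison 2 members, Sema7a and Nrp2, were up beyond 2-fold beside 19.0% of genes, higher and lower together. In cells labelled KO, 7 of 10 passed, 3 higher and 4 lower, beside 46.3%, and 1 was beyond 2-fold, Plxnb2 downward, beside 12.0%. The change with confinement differed by label, as tested by the interaction (change in KO minus change in WT), for 7 of 10 members, 2 with a positive and 5 with a negative difference, beside 25.8% of genes, and beyond 2-fold for 1, Sema7a, beside 7.67%. Between labels, 2 of 10 passed in nonconfined cells, both lower with label KO, beside 8.88% (beyond 2-fold 0 of 10 by limma beside 1.15%), and 7 of 10 in confined cells, 1 higher and 6 lower, beside 39.4% (beyond 2-fold 1, Sema7a, beside 10.1%). LPS changed 10 of 10, 6 higher and 4 lower, beside 71.5%, with 3 up and 1 down beyond 2-fold beside 29.0%.

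Across the LPS libraries 0 of 10 members passed between labels by limma, beside 0% of all genes called, with 0 beyond 2-fold beside 0%. By limma 890 genes (4.98%) had an unadjusted p under 0.05, and edgeR and DESeq2 each called 0. Libraries matched by Ddx3y and Acot1 stand under both labels, and Pla2g4a is not lower there with label KO. These counts therefore cannot show whether genotype matters under LPS. Of the members, Plxna1 had the largest difference there, −0.23 (adjusted p 0.779), and its labelled groups, like those of Plxnd1, did not overlap. Confined cells labelled WT differed from LPS-treated cells in 9 of 10 members, 4 higher and 5 lower, beside 54.3% of genes (beyond 2-fold 1 of 10 beside 14.8%). Confined cells labelled KO differed from them in 7 of 10, 3 higher and 4 lower, beside 62.9% (beyond 2-fold 4 of 10, all lower, beside 23.6%). Among the genes above a filter of 100 normalized counts, where all members lie, the shares called are higher: 60.6% for confinement in cells labelled KO, 37.9% for the interaction, 13.9% and 53.8% between labels in nonconfined and confined cells, 85.0% for LPS, and 69.0% and 76.8% for confined cells labelled WT and KO against LPS. With so few members these shares describe the family and were not tested as a set.

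The median member change was 0.22 with confinement in cells labelled WT, where the median of all genes was −0.01, and −0.01 in cells labelled KO, where all genes had 0.01. For the interaction the medians were −0.27 for members and 0.05 for all genes, between labels in confined cells −0.41 and 0.04, and with LPS 0.30 and 0.02. Library totals differ by group, with mean normalized totals of 34125100 in nonconfined libraries labelled WT, 39890270 in confined libraries labelled WT, 35818964 in those labelled KO and 48718670 in LPS libraries labelled WT. Scaling each library to the same total instead puts the median of all genes at −0.23 for confinement in cells labelled WT, 0.24 for the interaction, 0.19 between labels in confined cells, −0.46 for LPS, 0.27 for confined cells labelled WT against LPS and 0.46 for those labelled KO against LPS. Relative to those medians each member change stays within 0.05 of the value given here, the widest gap being that of Sema7a in the interaction. That follows from the scaling, which shifts all genes of a comparison by nearly the same amount. It does not tell which scaling is right.

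Under the same total the share of higher genes among all called genes moves from 49.8% to 32.7% for confinement in cells labelled WT, from 39.5% to 70.7% for the interaction, from 47.7% to 69.7% between labels in confined cells and from 52.0% to 26.4% for LPS. It moves from 53.8% to 42.0% between labels in nonconfined cells, from 45.2% to 75.0% for confined cells labelled WT against LPS and from 48.2% to 77.2% for those labelled KO against LPS. The members then split 4 higher and 4 lower for confinement in cells labelled WT, beside 61.3% of all genes called at that scaling, and 2 and 3 for the interaction, beside 37.5%. They split 3 and 6 between labels in confined cells, beside 48.1%, and 4 and 5 for LPS, beside 77.2%. For confined cells labelled WT against LPS they split 5 and 4, beside 60.1%, and for those labelled KO 6 and 4, beside 73.4%. Members whose own direction turns under that scaling are named below.

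**Figure D2:**
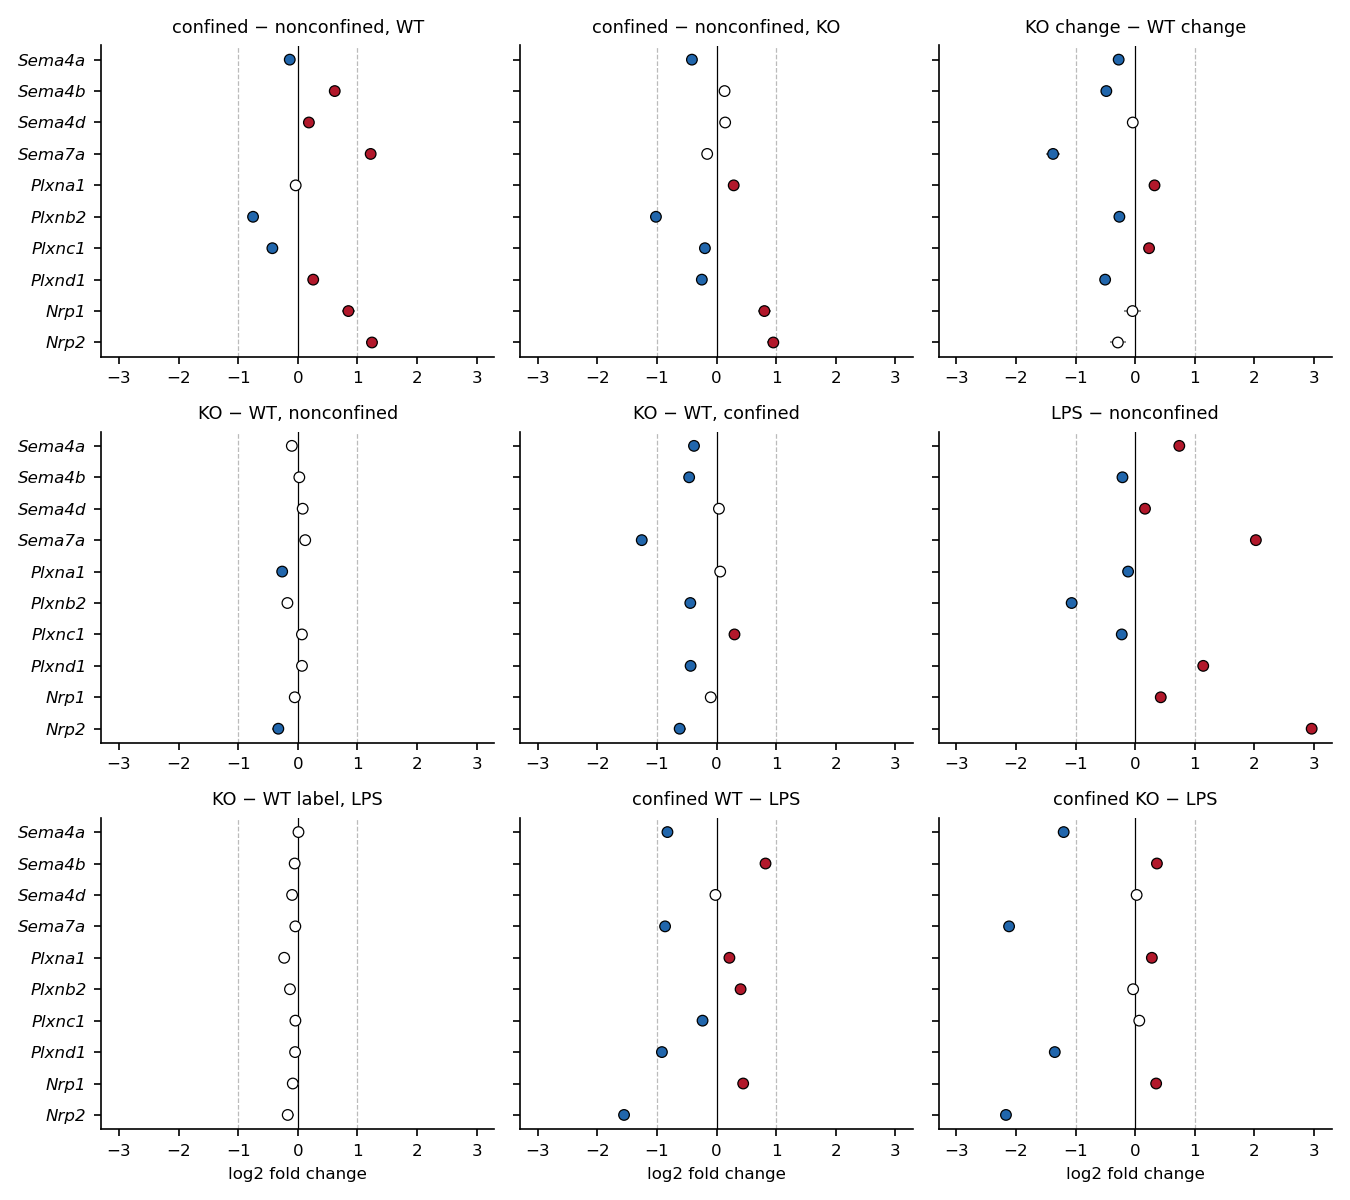
Log2 fold changes of the 10 genes in 9 comparisons with standard errors, red where higher and blue where lower at an adjusted p under 0.05, white otherwise, dashed lines at 2-fold; under a same-total scaling the called directions of Sema4d with confinement in cells labelled WT, Sema4d and Nrp1 with LPS, and Plxnc1 in confined cells labelled WT against LPS turn. Genotype is as labelled.

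Among the ligands, Sema7a, a GPI-anchored semaphorin that binds plexin C1 and β1 integrins, differed most by label. It read 988, 981 and 943 in nonconfined libraries labelled WT and 983, 1132 and 1066 in those labelled KO. After confinement it read 2277, 2263 and 2259 with label WT and 965, 922 and 961 with label KO. Confinement raised it 2.33 times in cells labelled WT (log2 1.22, standard error 0.0806, adjusted p 2.65e-11; 1.00 under the same total, just short of 2-fold). In cells labelled KO the ratio was 0.896 (log2 −0.16, adjusted p 0.12), and the interaction was −1.38 (standard error 0.114, adjusted p 3.9e-09). All 3 confined libraries labelled WT lie above all 9 other libraries without LPS, and the 3 confined libraries labelled KO lie below all 3 nonconfined libraries of the same label. That small decrease in cells labelled KO passes under TMM scaling (−0.20, adjusted p 0.0451) and where the nonconfined and confined libraries are fitted alone (adjusted p 0.0298).

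With LPS, Sema7a read 3626, 4658 and 4324 under label WT and 4547, 3634 and 4063 under label KO, 4.08 times the nonconfined level (log2 2.02, adjusted p 2.77e-18). The LPS libraries with Ddx3y near 0 read highest, at 4658 and 4547, and those with most Ddx3y lowest, at 3626 and 3634. Every LPS library is above every confined one. Confined cells labelled WT stood below LPS-treated cells by log2 −0.86 (adjusted p 9.58e-10) and those labelled KO by −2.12 (adjusted p 8.26e-17). The difference between labels in confined cells was −1.25 (adjusted p 3.35e-11), and in nonconfined cells 0.12 (adjusted p 0.394).

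Sema4a, a transmembrane ligand of plexin D1 and plexin B receptors that DCs use in costimulation of T cells, moved in opposite directions with the 2 stimuli. Nonconfined libraries read 25914, 24526 and 24991 with label WT and 23650, 23485 and 23255 with label KO. Confined libraries read 23195, 22521 and 23005 with label WT and 18536, 16691 and 17705 with label KO. Confinement lowered it by a log2 change of −0.13 in cells labelled WT (adjusted p 0.00562) and of −0.41 in those labelled KO (adjusted p 1.86e-08), an interaction of −0.28 (adjusted p 0.000567). The confined libraries labelled KO are the lowest 3 of the 18, and no library of a confined group overlaps the nonconfined group of its label. Scaled to the same total the interaction is −0.09 and does not pass (adjusted p 0.158), since the fall in cells labelled WT becomes −0.36.

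Under LPS, Sema4a read 40065, 40730 and 40259 with label WT and 40664, 41029 and 40379 with label KO, a rise of 1.67 times (log2 0.74, adjusted p 3.86e-16; 0.24 under the same total). No LPS library overlaps any other. Confined cells labelled WT were lower than LPS-treated cells by −0.82 (adjusted p 1.28e-14) and those labelled KO by −1.20 (adjusted p 4.44e-18; −0.76 under the same total). Between labels Sema4a was lower in confined KO libraries by −0.38 (adjusted p 7.11e-08), and by −0.22 under the same total (adjusted p 2.02e-05). In nonconfined libraries the difference of −0.10 did not pass (adjusted p 0.124), although it does with DESeq2 (adjusted p 0.0475) and under the same total (−0.13, adjusted p 0.018).

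Sema4b, a class 4 transmembrane semaphorin with a PDZ-binding tail, rose with confinement in cells labelled WT from 1475 ± 45.3 to 2270 ± 118 (log2 0.62, adjusted p 6.82e-08). With label KO it went from 1502 ± 31.9 to 1654 ± 147 (0.14, adjusted p 0.106), and the interaction was −0.49 (adjusted p 0.000503). Under the same total the rise with label WT is 0.40 (adjusted p 1.46e-05) and the interaction −0.30 (adjusted p 0.0126). Confined libraries labelled WT, at 2361, 2136 and 2313, all exceed the other 15. Those labelled KO, at 1770, 1489 and 1704, overlap their nonconfined group through replicate 2 alone, and without that library the change is 0.21 and passes (adjusted p 0.0162). LPS went the other way, to 1308 ± 103 with label WT and 1260 ± 30.4 with label KO (−0.21, adjusted p 0.000367; −0.71 under the same total). Sema4b was higher in confined than in LPS-treated cells with either label (WT 0.82, adjusted p 1.01e-10, and KO 0.36, adjusted p 1.25e-05), and under the same total these are 1.11, beyond 2-fold, and 0.81.

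Sema4d, which binds plexin B receptors and CD72 and is shed from the surface, changed least of the 4 ligands. Its group means ran from 6384 ± 226 in nonconfined libraries labelled WT to 7611 ± 523 in LPS libraries labelled WT, a span of 1.19 times. The change with confinement in cells labelled WT was 0.19 (adjusted p 0.0197) and turns to −0.04 under the same total (adjusted p 0.628). It does not pass under TMM scaling (0.14, adjusted p 0.0733), without nonconfined replicate 2 (0.16, adjusted p 0.0831) or without confined replicate 1 (0.18, adjusted p 0.0536), both labelled WT. In cells labelled KO the change of 0.15 did not pass (adjusted p 0.0778) but does without nonconfined replicate 2 (0.22, adjusted p 0.00779), and the interaction was −0.04 (adjusted p 0.795). LPS gave 0.16 with overlapping libraries (adjusted p 0.00355), 0.25 within label WT alone (adjusted p 0.0021), 0.07 within label KO alone (adjusted p 0.335), 0.09 with TMM (adjusted p 0.0733) and −0.33 under the same total (adjusted p 9.47e-07), so its direction depends on the scaling.

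Of the receptors, Plxnd1, a receptor for Sema3e and Sema4a, is the most abundant, and its direction under confinement differed between labels. Nonconfined libraries read 34054, 30813 and 32127 with label WT and 32798, 35022 and 34003 with label KO. Confined libraries read 39480, 37722 and 38809 with label WT and 29915, 27043 and 28936 with label KO. The change was 0.26 in cells labelled WT (standard error 0.0443, adjusted p 3.47e-05) and −0.25 in those labelled KO (adjusted p 0.000103), with an interaction of −0.51 (standard error 0.0626, adjusted p 1.94e-06). Confined libraries labelled WT lie above all 6 nonconfined ones, and those labelled KO below all 6. Under the same total the rise in cells labelled WT is 0.03 and does not pass (adjusted p 0.487), and the interaction is −0.32 (adjusted p 0.000216).

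LPS libraries gave Plxnd1 values of 75175, 73764 and 73339 with label WT and 72515, 70986 and 71974 with label KO, 2.20 times the nonconfined level (log2 1.14, adjusted p 1.78e-18; 0.64 under the same total). All 6 exceed each of the other 12 libraries. Confined cells labelled WT were lower than LPS-treated cells by −0.92 (adjusted p 1.9e-14) and those labelled KO by −1.35 (adjusted p 5.6e-18; −0.91 under the same total). In confined cells the label KO was lower by −0.43 (adjusted p 6.09e-08), and by −0.28 under the same total.

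Plxnb2, a receptor for class 4 semaphorins and for angiogenin, fell with both stimuli. It read 4410, 3950 and 4156 in nonconfined libraries labelled WT and 3488, 3990 and 3627 in those labelled KO. Confined libraries read 2523, 2506 and 2406 with label WT and 1892, 1768 and 1823 with label KO, while LPS libraries read 1820, 2086 and 1981 with label WT and 1904, 1647 and 1828 with label KO. The change with confinement was −0.75 in cells labelled WT (adjusted p 2.14e-09) and −1.02 in cells labelled KO (adjusted p 3.91e-11), and with LPS −1.07 (adjusted p 4.7e-15). No confined or LPS library reaches the lowest nonconfined one. The change in cells labelled KO is short of 2-fold without nonconfined replicate 2 (−0.96) or confined replicate 2 (−0.99) of that label. Confined cells labelled KO and LPS-treated cells differed by −0.04 (adjusted p 0.597; 0.41 under the same total, adjusted p 4.26e-06), and confined cells labelled WT were higher than LPS-treated cells by 0.40 (adjusted p 2.82e-06).

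The interaction for Plxnb2, −0.27 (adjusted p 0.036), rests on little. Scaled to the same total it is −0.08 (adjusted p 0.573), with no filter on low values its adjusted p is 0.0613, and with replicate number as a block 0.053. It also does not pass without confined replicate 2 (−0.24, adjusted p 0.0814) or 3 (−0.26, adjusted p 0.0642) labelled KO, confined replicate 1 (−0.25, adjusted p 0.0742) or 2 (−0.26, adjusted p 0.0692) labelled WT, nonconfined replicate 2 labelled KO (−0.21, adjusted p 0.0971), or nonconfined replicate 2 (−0.23, adjusted p 0.102) or 3 (−0.26, adjusted p 0.0662) labelled WT. Between labels Plxnb2 was lower in confined KO libraries by −0.44 (adjusted p 1.11e-05), and by −0.28 under the same total. In nonconfined ones the difference was −0.17 (adjusted p 0.106), which passes without nonconfined replicate 2 labelled KO (−0.23, adjusted p 0.0326) and in the fit without LPS libraries (adjusted p 0.0443).

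Plxnc1, the receptor of Sema7a, went down with confinement in cells labelled WT, where its ligand went up. It read 7232, 7081 and 7210 in nonconfined libraries labelled WT and 5151, 5395 and 5480 in confined ones (log2 −0.43, adjusted p 1.75e-06), without overlap. With label KO it read 7116, 8120 and 7392 before and 6763, 6427 and 6558 after confinement (−0.19, adjusted p 0.00862), again without overlap, but without nonconfined replicate 2 the change is −0.14 and does not pass (adjusted p 0.0604). Confined cells labelled KO kept more Plxnc1 than those labelled WT (0.30, adjusted p 0.000242), the only member passing in that direction at this scaling; under the same total Sema4d (0.20, adjusted p 0.015) and Plxna1 (0.22, adjusted p 0.011) pass as well. With LPS it was 6386 ± 588 with label WT and 6199 ± 243 with label KO (−0.23, adjusted p 3.9e-05; −0.72 under the same total). Against LPS, confined cells labelled WT were lower (−0.23, adjusted p 0.000444), which turns to 0.05 under the same total (adjusted p 0.341), and those labelled KO differed by 0.07 (adjusted p 0.249), which is 0.51 and passes under the same total (adjusted p 6.52e-09).

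The interaction for Plxnc1 was 0.23 (adjusted p 0.041); it is 0.42 under the same total (adjusted p 0.000288) and fails in many other alternatives. Its adjusted p is 0.0987 with edgeR, 0.0734 with no filter and 0.0602 with replicate number as a block, and it ranges from 0.0103 to 0.11 when 1 library is left out. It does not pass without nonconfined replicates 1 (0.23, adjusted p 0.0765), 2 (0.24, adjusted p 0.0591) or 3 (0.23, adjusted p 0.076) labelled WT, nor without nonconfined replicates 1 (0.19, adjusted p 0.11) or 3 (0.22, adjusted p 0.0885) labelled KO. The same holds for confined replicates 1 (0.21, adjusted p 0.0993) and 2 (0.24, adjusted p 0.0592) labelled WT and confined replicates 1 (0.21, adjusted p 0.0894) and 3 (0.23, adjusted p 0.0673) labelled KO.

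Plxna1, a receptor that works with neuropilins and with the Trem2 and DAP12 complex in DCs, stayed between group means of 5024 ± 325 in LPS libraries labelled KO and 6584 ± 151 in confined libraries labelled KO. Confinement gave −0.03 in cells labelled WT (adjusted p 0.67; −0.26 and passing under the same total, adjusted p 0.00211) and 0.29 in cells labelled KO (adjusted p 0.000751), with an interaction of 0.32 (adjusted p 0.00984). The labels already differed in nonconfined cells, where the libraries labelled KO, at 4859, 6093 and 5290, were lower than those labelled WT, at 6587, 6406 and 6389 (−0.26, adjusted p 0.0127). It does not pass with these groups fitted alone (adjusted p 0.0811), without nonconfined replicate 1 labelled WT (−0.25, adjusted p 0.0513), or without nonconfined replicate 1 (−0.19, adjusted p 0.0973) or 3 (−0.25, adjusted p 0.0566) labelled KO. The 2 confined groups overlapped (0.06, adjusted p 0.482).

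With LPS, Plxna1 was lower by −0.12 with overlapping libraries (adjusted p 0.0204), which does not pass without nonconfined replicate 2 (−0.08, adjusted p 0.0735) or LPS replicate 2 (−0.10, adjusted p 0.0587), both labelled KO. It is larger with TMM (−0.19, adjusted p 0.000714) and under the same total (−0.62, adjusted p 1.63e-10). Within 1 label it does not pass either (WT −0.14, adjusted p 0.0645; KO −0.10, adjusted p 0.159). Confined cells were higher than LPS-treated cells by 0.22 with label WT (adjusted p 0.00209) and 0.28 with label KO (adjusted p 0.000144), the former not passing against the LPS libraries labelled WT alone (0.10, adjusted p 0.192); under the same total they are 0.50 and 0.72.

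Among the co-receptors, Nrp2, which binds class 3 semaphorins and VEGF-C and carries polysialic acid on mature DCs, had the widest range of all members, 9.16 times between its highest and lowest group. Nonconfined libraries read 1545, 1506 and 1391 with label WT and 954, 1406 and 1226 with label KO, and confined ones 3381, 3594 and 3552 with label WT and 2279, 2197 and 2384 with label KO. LPS libraries read 12289, 9736 and 10812 with label WT and 9182, 10377 and 9569 with label KO. The change with confinement was 1.25 in cells labelled WT (standard error 0.0988, adjusted p 5.66e-10) and 0.95 in those labelled KO (adjusted p 7.85e-08), and with LPS 2.96 (adjusted p 1.27e-19), a ratio of 7.72. Nonconfined, confined and LPS libraries do not overlap, and the confined libraries labelled WT all lie above those labelled KO (−0.62, adjusted p 3.19e-05).

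The interaction for Nrp2, −0.29, did not pass (adjusted p 0.138), although it does without nonconfined replicate 1 labelled KO (−0.45, adjusted p 0.00472). The rise in cells labelled KO is beyond 2-fold without nonconfined replicate 2 of that label (1.08). Between labels in nonconfined cells the groups overlap, the change of −0.33 (adjusted p 0.043) becomes −0.17 without replicate 1 labelled KO (adjusted p 0.284), and it does not pass without nonconfined replicate 3 labelled KO (−0.35, adjusted p 0.0811) or replicates 1 (−0.29, adjusted p 0.14), 2 (−0.31, adjusted p 0.127) or 3 (−0.37, adjusted p 0.0651) labelled WT. It does not pass with edgeR either (adjusted p 0.0615), nor with no filter (adjusted p 0.0799), with replicate number as a block (adjusted p 0.0623) or with these groups fitted alone (adjusted p 0.174). Confined cells labelled WT were below LPS-treated cells by −1.55 (adjusted p 1.78e-12) and those labelled KO by −2.17 (adjusted p 2.02e-15).

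Nrp1, a co-receptor for class 3 semaphorins and VEGF-A found at contacts between DCs and T cells, rose with confinement under both labels. It went from 1552 ± 101 to 2795 ± 114 with label WT (log2 0.85, adjusted p 4.33e-07) and from 1498 ± 81.1 to 2614 ± 142 with label KO (0.80, adjusted p 1.77e-06), without overlap, and the interaction was −0.05 (adjusted p 0.862). The 2 confined groups overlapped (−0.10, adjusted p 0.506). With LPS it read 2458, 1759 and 2168 with label WT and 1689, 2346 and 1989 with label KO (0.43, adjusted p 2.28e-05), but under the same total this is −0.07 and does not pass (adjusted p 0.382). Confined cells were higher than LPS-treated cells by 0.45 with label WT (adjusted p 0.000249) and by 0.35 with label KO, the latter with overlap (adjusted p 0.00193). Under the same total these differences are 0.74 and 0.79.

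Confined and LPS-treated cells were also collected at different times after the stimulus, 4 h against the next day, so stimulus and time cannot be told apart in the comparisons between them. LPS libraries also mix Ddx3y from 0 to 1476, while confined ones read 0 to 2.37 with label WT and 920 to 1036 with label KO. The sex of the donors can thus differ in these comparisons too, and its part was not tested. The members at lower levels in confined than in LPS-treated cells with either label are Sema4a, Sema7a, Plxnd1 and Nrp2, and those at higher levels are Sema4b, Plxna1 and Nrp1, joined under the same total by Sema4d (0.27 with label WT, 0.47 with label KO) and Plxnb2 (0.69 and 0.41). The paper describes each plotted RNA-seq sample as a biological replicate. Nothing in the labels says that the 3 libraries of a group come from separate cultures on separate days, and the p-values measure the spread between libraries only.

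Over the 18 libraries, log2 counts of Sema4a and Plxnd1 correlated at r = 0.959, Sema7a and Plxnd1 at 0.952, Sema7a and Nrp2 at 0.944, and Plxnd1 and Nrp2 at 0.921, while Plxnb2 and Nrp2 gave −0.764, the lowest of the 45 pairs. The points share their groups, 3 libraries in each of 6, so these values mostly describe the group means. Sema7a and its receptor Plxnc1 gave −0.557. Among 10554 genes with a mean of at least 100, the closest profiles were Niban1, Ikbke and Ebi3 for Sema7a (Niban1 0.996), Tapbp, Ptger4 and Mfhas1 for Plxnd1 (Tapbp 0.998), Pdcd1lg2, Mllt6 and Pik3r5 for Nrp2 (Pdcd1lg2 0.994), and Ms4a6c for Sema4a (0.996). Closest to Plxnb2 were Gm4737, Tubb5 and Fam3c (Gm4737 0.979), to Sema4b Tob2, Rubcnl and Ears2 (Tob2 0.973), to Nrp1 Eya3, Gss and Arl4c (Eya3 0.961), and to Plxnc1 Emp2, Rsu1 and Adpgk (Emp2 0.942). Plxna1 and Sema4d had the weakest best matches, Tnpo1 (0.897) and Cert1 (0.853).

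The rest of the family was read beside the members. The counts given for it and for the lists below stand beside shares of all tested genes called. These are 56.6% for confinement in cells labelled WT, 46.3% in cells labelled KO, 25.8% for the interaction and 71.5% with LPS. Under the same total they are 61.3%, 46.7%, 37.5% and 77.2%. Beyond 2-fold, without that scaling, they are 19.0% for confinement in cells labelled WT and 29.0% with LPS. Of 16 other semaphorins 10 were tested: with confinement 2 were higher and 1 lower in cells labelled WT, and likewise in cells labelled KO, the interaction was negative for 2, and LPS raised 4 and lowered 1 (under the same total 2 and 2, 2 and 1, 0 and 2, and 3 and 2). Their medians were 0.77 in cells labelled WT, 0.17 in cells labelled KO and 0.76 with LPS. Under the same total these are 0.60, 0.13 and 0.33, where the medians of all genes are −0.23, −0.02 and −0.46. The medians include genes with few counts, Sema3a, Sema3f, Sema4g and Sema6a, at means of 11.4, 5.76, 7.89 and 9.965. In cells labelled WT the median lies between Sema6c (0.62, adjusted p 0.175 by limma) and Sema3a (0.91, adjusted p 0.345). Neither passed, so the median does not show a rise across these semaphorins. Sema4f, a class 4 semaphorin, averaged 57.7 and 155 in nonconfined, 1314 and 318 in confined, and 98.8 and 106 in LPS libraries (label WT, then KO). It rose by 4.49 in cells labelled WT (adjusted p 9.2e-16) and by 1.04 in those labelled KO (adjusted p 1.9e-05), an interaction of −3.45 (adjusted p 1.05e-10). Sema4c, a ligand of plexin B2, averaged 319 and 272 in nonconfined, 375 and 90.0 in confined, and 425 and 483 in LPS libraries, falling by a log2 change of −1.61 in confined cells labelled KO (adjusted p 4.23e-08; interaction −1.85, adjusted p 1.6e-06). Sema6d, a ligand of plexin A1, rose with LPS by 2.14 (adjusted p 2.71e-17).

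Of 5 other plexins 4 were tested, and 3 were lower with confinement in cells labelled WT, 1 higher and 1 lower in cells labelled KO, and 3 lower with LPS, with the same counts under the same total. In the interaction 0 of the 4 passed by limma, and 2 were higher under the same total. Their median was −1.65 in cells labelled WT and −1.28 with LPS. Plxnb3 is the one above a mean of 100 that passed beyond 2-fold: it averaged 252 and 251 in nonconfined, 68.6 and 113 in confined, and 34.2 and 37.2 in LPS libraries, with changes of −1.87 (adjusted p 4.27e-07), −1.13 (adjusted p 0.000348) and −2.80 (adjusted p 9.04e-13) for confinement in cells labelled WT and KO and for LPS. Plxnb1, a main receptor of Sema4d, was at a mean of 4.64 and was not tested.

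Of 22 further co-receptors and ligands 21 were tested, with 10 higher and 6 lower for confinement in cells labelled WT, 5 and 6 in cells labelled KO, 3 and 9 for the interaction, and 9 and 7 with LPS (same total: 9 and 7, 5 and 7, 6 and 5, 7 and 12). Vegfa, a ligand of Nrp1, averaged 758 and 933 in nonconfined, 7558 and 2455 in confined, and 5050 and 5169 in LPS libraries (changes 3.32, adjusted p 1.12e-10, with label WT and 1.40, adjusted p 5.55e-05, with label KO; interaction −1.92, adjusted p 0.000167). Met, which pairs with plexin B receptors, rose by 2.42 with label WT, 1.95 with label KO and 3.50 with LPS (adjusted p 6.93e-14, 8.27e-12 and 6.06e-20). Cd72, a receptor of Sema4d outside the plexins, fell by log2 changes of −1.20 with label WT and −2.70 with label KO (adjusted p 2.97e-08 and 1.64e-13; interaction −1.50, adjusted p 6.78e-07). Kdr, a VEGF receptor that pairs with neuropilins, rose by 1.04 in cells labelled WT (adjusted p 5.49e-05) and by 2.57 with LPS (adjusted p 9.27e-14). L1cam, a partner of Nrp1, fell in cells labelled WT (−1.18, adjusted p 1.02e-09). With label KO L1cam also averaged lower, at 1057 in nonconfined and 683 in confined libraries. Vegfb fell with LPS (−1.15, adjusted p 7.22e-12). Itgb1, the integrin chain bound by Sema7a, rose with LPS by 1.13 (adjusted p 5.1e-19).

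Among 34 genes that act with plexins inside the cell, 31 were tested, with 9 higher and 14 lower for confinement in cells labelled WT, 6 and 13 in cells labelled KO, 6 and 6 for the interaction, and 12 and 13 with LPS (same total: 7 and 18, 5 and 13, 14 and 5, 8 and 20). Beyond 2-fold, 2 were higher and 2 lower with confinement in cells labelled WT. Sh3bp1, a GAP for Rac, fell with confinement in cells labelled WT (−1.22, adjusted p 5.73e-13), as did Mras, a Ras-family GTPase (−1.47, adjusted p 1.13e-07). With label KO both also averaged lower, Sh3bp1 at 6332.5 in nonconfined and 3381.7 in confined libraries and Mras at 395 and 205. Fyn, a kinase that phosphorylates plexins, had an interaction of −1.01 (adjusted p 4.1e-09). These are not all the listed genes that passed beyond 2-fold. The 2 higher genes with confinement in cells labelled WT, among them the largest change of the list, are not named here. With LPS, 6 were higher and 5 lower beyond 2-fold. Rap1b and Rras2, substrates of the plexin GAP domain, rose with LPS (1.27, adjusted p 2.28e-19, and 1.76, adjusted p 1.29e-17).

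Of 3 proteases that shed semaphorins, 2 were higher with confinement in cells labelled WT and 3 in those labelled KO, and LPS raised 2 and lowered 1; under the same total 1, Adam10, is also lower in cells labelled WT. Mmp14, which sheds Sema4d, averaged 3743 and 2861 in nonconfined, 15250 and 4523 in confined, and 29188 and 28654 in LPS libraries, with changes of 2.03 in cells labelled WT (adjusted p 5.84e-17) and 3.14 with LPS (adjusted p 1.38e-23) and an interaction of −1.37 (adjusted p 6.36e-11). Adam17 rose with LPS by 1.53 (adjusted p 1.31e-18). Each change beyond 2-fold given for these listed genes has the same sign and an adjusted p under 0.05 with TMM scaling and under the same total, but under the latter Itgb1 (0.63) and Rap1b (0.77) with LPS, Kdr with confinement in cells labelled WT (0.82) and Fyn in the interaction (−0.82) are short of 2-fold, as with TMM are Kdr in cells labelled WT (0.99) and, narrowly, Sema4f in cells labelled KO (1.00).

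**Figure D3:**
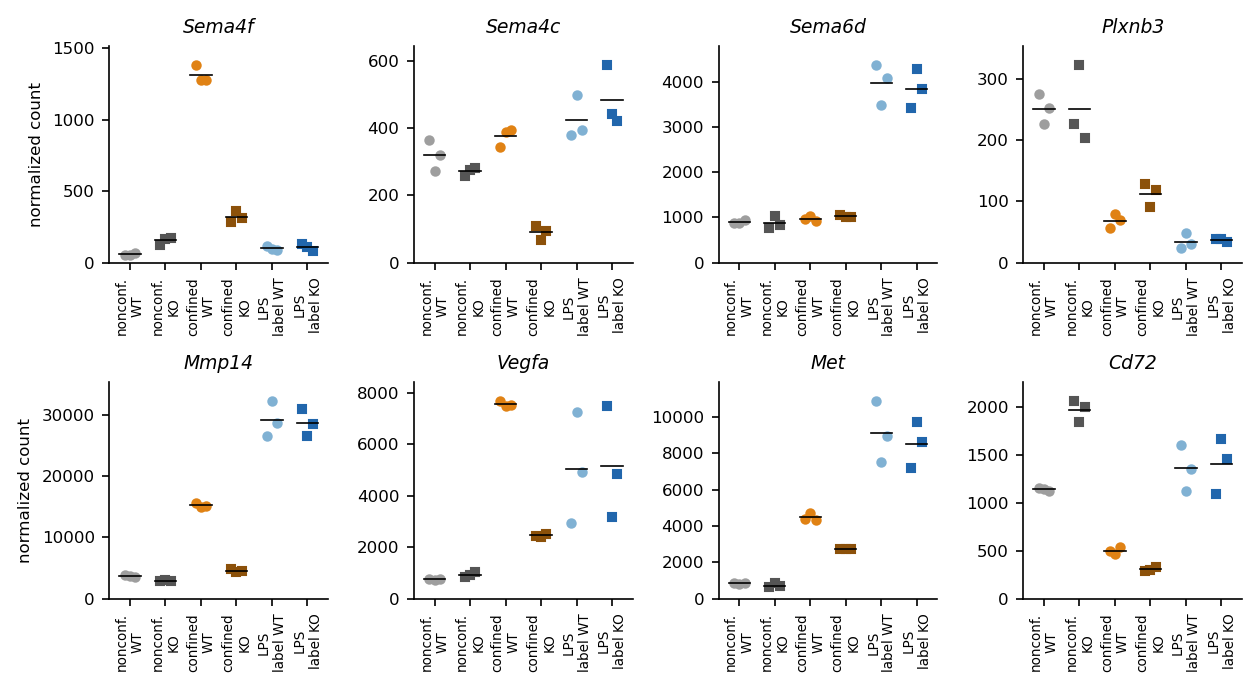
Normalized counts of Sema4f, Sema4c, Sema6d, Plxnb3, Mmp14, Vegfa, Met and Cd72 in each of the 18 libraries, on linear axes that start at 0, with the line at the mean of 3 libraries. Genotype is as labelled.

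The libraries are bulk cultures, so fewer cells of a type and less RNA per cell cannot be told apart for any member. The marker counts below stand beside 56.6% of all genes called for confinement in cells labelled WT and 46.3% in cells labelled KO. With LPS the share is 71.5%, and between labels in nonconfined libraries 8.88%. Markers of DCs summed to 423131 and 506136 in nonconfined, 372935 and 357183 in confined, and 563609 and 565423 in LPS libraries (label WT, then KO), led by Cd74, with 1 of 8 higher and 6 lower for confinement in cells labelled WT, 7 lower in cells labelled KO, 7 higher with LPS, and 4 higher and 1 lower with label KO in nonconfined libraries. Macrophage markers summed to 18422, 21064, 144561, 28508, 107694 and 105328 in the same order, nearly all of the rise being Cd14, while 5 of 8 fell with confinement in cells labelled WT and 6 of 8 in cells labelled KO, LPS raised 3 and lowered 5, and 3 were higher with label KO in nonconfined libraries. Neutrophil markers, led by S100a9, summed to 227097, 335797, 138071, 317941, 277815 and 274794, with 7 of 7 lower for confinement in cells labelled WT, 3 lower in cells labelled KO, 3 higher and 3 lower with LPS, and 5 higher in nonconfined libraries labelled KO than in those labelled WT. Eosinophil markers, led by Prg2, summed to 28048, 65571, 7271, 16442, 31594 and 31610. With confinement 3 of 5 were lower and 1 higher in cells labelled WT, and 4 of 5 were lower in cells labelled KO. With LPS, compared over both labels, 5 of 5 were lower. Within label WT, however, Epx, Prg2, Ear1 and Ccr3 averaged higher with LPS and Siglecf lower, and the sum went from 28048 to 31594. In nonconfined libraries 4 of 5 were higher and 1 lower with label KO.

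Mast cell and basophil markers, led by Cpa3, summed to 6226, 9377, 2534, 4100, 6011 and 6176, with 5 of 5 lower with confinement under either label, 1 higher and 4 lower with LPS, 4 higher in nonconfined libraries labelled KO, and Mcpt4 near 0. Plasmacytoid DC markers summed to 11104, 11574, 11654, 7708, 25709 and 24943, almost all of it Bst2, with Siglech and Ly6d under 10 on average. Endothelial markers came to 1646 to 1884 in the 6 groups, mostly Pecam1 (Kdr is also in the list of co-receptors), with Cdh5, Tek, Tie1 and Emcn under 10. Fibroblast markers summed to 76.7 to 200 (Col1a1 leading; Col1a2, Col3a1 and Dcn under 10) and T and B cell markers to 79.8 to 230 (Cd3d leading; Ms4a1 under 10). The Methods describe recovery of the semiadherent fraction as DCs, a step meant to remove nonadherent granulocytes. Whether shifts in the share of granulocytes contribute to the changes of Plxnb2, Plxnc1 or any other member was not tested.

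RefSeq promoters (GRCm38.p6) were read for 9 of the 10 members, all but Plxna1, over the 250 bases before each start of transcription, because Sema4a, Sema7a, Plxnd1 and Nrp2 moved together with LPS. Searched on both strands were the κB motif, the interferon-stimulated response element GAAANNGAAA and the gamma-activated sequence TTCNNNGAA. They were found before at least 1 start of 1, 1 and 0 of the 9 genes, Sema4a for κB and Plxnc1 for the response element, beside 4.46%, 3.46% and 8.13% of all 27025 genes with a promoter, and the matches do not overlap. A match describes letters in the window and not a site in use. The promoters of the ligand with the strongest dependence on the label, of its receptor, of the co-receptor with the widest range, and the Sema4a promoter with the match are printed 5′ to 3′ on the strand of the gene, the match in capitals (κB in Sema4a, on the opposite strand, and the response element in Plxnc1).
Sema4a (chr3:88459102-88459351, minus strand): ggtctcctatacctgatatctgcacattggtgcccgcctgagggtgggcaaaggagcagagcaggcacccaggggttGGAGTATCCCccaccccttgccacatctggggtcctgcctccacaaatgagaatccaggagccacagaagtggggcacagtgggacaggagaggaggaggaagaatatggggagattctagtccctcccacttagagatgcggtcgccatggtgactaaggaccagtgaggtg
Sema7a (chr9:57939862-57940111, plus strand): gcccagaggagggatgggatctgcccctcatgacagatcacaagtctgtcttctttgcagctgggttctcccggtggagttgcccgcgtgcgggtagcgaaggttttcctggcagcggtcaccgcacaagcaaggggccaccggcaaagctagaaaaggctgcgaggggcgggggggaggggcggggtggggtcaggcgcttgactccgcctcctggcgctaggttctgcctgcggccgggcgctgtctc
Plxnc1 (chr10:94944846-94945095, minus strand): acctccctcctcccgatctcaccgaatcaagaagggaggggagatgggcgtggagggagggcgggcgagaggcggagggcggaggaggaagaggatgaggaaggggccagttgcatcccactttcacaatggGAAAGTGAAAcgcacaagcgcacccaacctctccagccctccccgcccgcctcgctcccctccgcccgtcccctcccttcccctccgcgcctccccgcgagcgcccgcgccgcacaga
Nrp2 (chr1:62703067-62703316, plus strand): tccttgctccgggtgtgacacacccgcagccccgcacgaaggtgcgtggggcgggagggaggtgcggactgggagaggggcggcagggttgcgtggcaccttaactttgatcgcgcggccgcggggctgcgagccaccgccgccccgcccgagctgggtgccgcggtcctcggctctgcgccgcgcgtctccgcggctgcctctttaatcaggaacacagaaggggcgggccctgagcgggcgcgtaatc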

How the data were processed

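The authors report alignment with STAR 2.7.5a to mm39, counting with featureCounts 1.5.0 on Mouse FAST DB v2021_2 and normalization with DESeq2. Their deposited table holds signal in the sense of read counts divided by a size factor; dividing each library by the size of 1 read in it, found from its smallest value, recovered whole reads for 100.0% of values, within 0.01 read. Genes were tested where at least 3 of 18 libraries reached a normalized count of 10, which left 17875 of 62197. limma 3.58.1 (R 4.3.3) with a trended variance was fitted to log2 of the normalized count plus 1, with 6 group means, and p-values were adjusted by Benjamini and Hochberg over all tested genes. Members are the genes whose symbol in the table is one of the 10 names; 37020 genes of the table have no symbol. The members and the gene lists were chosen with earlier results of these data known. Genes named from the lists passed beyond 2-fold at a mean of at least 100 over the libraries, but not all such genes are named. Plxnb1 and Adam10 are named beside them for their role. Sema3a, Sema3f, Sema4g, Sema6a and Sema6c are named only to describe the medians of their list. The same whole reads were tested with edgeR 4.0.16 (quasi-likelihood) and DESeq2 1.42.0: for confinement in cells labelled WT these called 10102 and 10267 genes beside 10113 by limma, for the interaction 4569 and 4913 beside 4619, and for LPS 12785 and 12871 beside 12774. Other alternatives were 2 other pseudocounts, 2 other filters, same-total and TMM scaling, a replicate block, a fit of the compared groups alone or without the LPS libraries, and fits that omit a single library. The fit was first run on simulated counts with known changes. Promoters are from RefSeq, merged exon lengths from GENCODE vM39.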

Additional observations from a re-analysis of the deposited data

Results flagged for a closer look

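The change with confinement in cells labelled KO minus that in cells labelled WT passed the interaction test for 7 of the 10 members, beside 25.8% of all genes; under the same total 5 members pass beside 37.5%. For Sema4a the difference was −0.28 (adjusted p 0.000567), which does not pass under the same total. For Sema4b it was −0.49 (adjusted p 0.000503). For Sema7a it was −1.38 (adjusted p 3.9e-09), the largest in size of the 10. For Plxna1 it was 0.32 (adjusted p 0.00984), starting from lower values in nonconfined libraries labelled KO. For Plxnb2 it was −0.27 (adjusted p 0.036), which does not pass under the same total, with no filter, with a replicate block (0.053) or with any 1 of 7 libraries left out. For Plxnc1 it was 0.23 (adjusted p 0.041), which does not pass with edgeR, with no filter, with a replicate block (0.0602) or with any 1 of 9 libraries left out, and which is 0.42 under the same total (adjusted p 0.000288). For Plxnd1 it was −0.51 (adjusted p 1.94e-06), with opposite signs under the 2 labels.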

How the results depend on the processing

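Over 1890 member values from alternatives, 1725 kept their sign and stayed on the same side of the threshold, 125 no longer passed, 14 passed that had not, and 26 had the opposite sign. Of the 125, 44 come from requiring 2-fold as well and 33 from the thresholds of the Methods, at the same log2, so these numbers do not count changes in size. Scaling each library to the same total gave the opposite sign for Sema4b between labels in nonconfined cells (−0.00738), Sema4d with confinement in cells labelled WT (−0.0383), in the interaction (0.15), with LPS (−0.33) and in confined cells labelled WT against LPS (0.27), Plxnb2 in confined cells labelled KO against LPS (0.41), Plxnc1 in confined cells labelled WT against LPS (0.0543), and Nrp1 in the interaction (0.14), between labels in confined cells (0.0584) and with LPS (−0.0688). TMM scaling did so for Sema4a between labels with LPS (−0.00204) and Sema4d in confined cells labelled WT against LPS (0.00737). For that last result edgeR gave 0.0531 and DESeq2 0.0189. Plxnb2 in confined cells labelled KO against LPS was 0.00472 with edgeR and 0.0295 against the LPS libraries labelled KO.

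Leaving out 1 library crossed 0 for Sema4d in the interaction (−0.12 to 0.0344), between labels in confined cells (−0.0206 to 0.0746), and in confined cells labelled WT (−0.0390 to 0.00904) and KO (−0.0384 to 0.0567) against LPS. It also did for Nrp1 in the interaction (−0.0785 to 0.00848) and, between labels with LPS, for Sema7a (−0.14 to 0.0402), Plxnc1 (−0.10 to 0.0304) and Nrp1 (−0.21 to 0.0348).

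Under the thresholds of the Methods, an unadjusted p of at most 0.05 and a change of at least 1.5-fold, the members passing numbered 5 for confinement in cells labelled WT (34.5% of all genes), 3 in those labelled KO (23.6%), 1 in the interaction (16.5%), 0 between labels in nonconfined cells (5.59%), 2 in confined cells (19.4%), 5 with LPS (46.1%), and 5 (27.8%) and 4 (39.0%) for confined cells labelled WT and KO against LPS. The number between labels in nonconfined cells, 2 (8.88% of all genes), was 1 with no filter (1236 of 31495 genes called). It was 1 with a replicate block (7.74%) and 3 under the same total (10.1%). Counts were also 1 with edgeR, 3 with DESeq2, 0 in these groups alone (limma) and 3 without the LPS libraries. They ran from 0 to 3 when 1 library was left out. Shares of all genes are not given for these last settings. With the replicate block the counts, in the order given for the thresholds of the Methods, were 9 (beside 56.0% of all genes), 7 (45.5%), 5 (24.8%), 1 (7.74%), 7 (38.4%), 10 (71.1%), 9 (53.6%) and 7 (62.5%). Between labels with LPS the count was 0 (limma, 0 of all genes). Without a block edgeR and DESeq2 also called 0 there, and 890 genes had an unadjusted p under 0.05 by limma. Residuals of libraries sharing a replicate number did not correlate above 0.1 in all 3 pairs of any compared groups. For confined libraries labelled WT and KO these correlations ran from 0.04 to 0.34. In LPS libraries the replicate numbers do not follow the match by Ddx3y and Acot1. Replicates 1 and 2 of label WT gave −0.14 and −0.13 with those of the same number under label KO. With their matches, replicates 2 and 1 of label KO, they gave 0.10 and 0.16. Replicates 3, which match each other, gave −0.005. The replicate block therefore does not account for that match. Leaving out 1 library gave 8 to 9 for confinement in cells labelled WT, 7 to 8 in those labelled KO, 5 to 7 in the interaction and 9 to 10 with LPS. The shares of all genes called in these fits are not given, so the ranges have no background beside them. The fit without the LPS libraries was added after the data were seen. The cause of these movements was not tested.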
